A study of Mus musculus with 12 samples.

Results

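The genes described here were 48 protein-coding genes that flank *Crebbp* on mouse chromosome 16, out of 55471 genes listed in the count table. They were chosen by their position near *Crebbp*, the gene that carries the CBP-AA mutation, and the list was drawn up with the response to CBP genotype already known for at least 1 of them, *Clec16a*. Values of CBP-AA against CBP-WT mice are therefore descriptions, without p-values, and counts of genes at a cutoff in that comparison only place the flanking genes among all genes tested. Tests of single genes are given for the loss of p53 and for the interaction of both genotypes. In total, 46 of the 48 genes passed the filter on low counts of edgeR, beside 14610 of all listed genes. *Nlrc3* passed that filter only through CBP-AA libraries, 3 of which reached its floor of 0.718 CPM while no CBP-WT library did, and the other 45 reached it in at least 3 CBP-WT libraries. The exceptions were *Tvp23a*, which encodes a Golgi membrane protein, with 43 reads over the 12 libraries, and *Dnase1*, which encodes a secreted nuclease, with 13 reads.

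RNA of colonic crypts was sequenced with 1 library per mouse in 12 mice, 3 in each of 4 groups. All groups carried floxed p53 alleles, were on a C57BL/6J background per the labels and, per the methods, were females of 8 weeks. CBP-WT p53-floxed mice had wild-type CBP and intact p53, and CBP-AA p53-floxed mice had a pair of neighbouring serines of CBP changed to alanines in the germline, and thus in all cells. CBP-WT p53ΔIEC and CBP-AA p53ΔIEC mice also carried Villin-Cre, which is active in the intestinal epithelium and removes p53 there. The CBP-AA allele was made with a neomycin cassette in mouse embryonic stem cells, for which the methods give a 129 background in one passage and C57BL/6N in another, and the mice were then backcrossed to C57BL/6 with CBP-WT littermates as controls. The neomycin cassette was flanked by loxP sites, the target of Cre, and the methods do not state its removal. The changed codons, any cassette left in place and any linked sequence from the stem cells are inherited together. Their parts in the values below therefore cannot be told apart.

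CBP is a histone acetyltransferase that acts as a coactivator of CREB, p53 and many other transcription factors, and phosphorylation of these serines alters which factors it favours. In a knock-in line, the genes next to the targeted locus travel with the mutation, which is why neighbours are read as a group of their own. This stretch of chromosome 16 is also known for the *Ciita*, *Dexi*, *Clec16a* and *Socs1* cluster, whose human counterpart is tied to autoimmune disease. *Clec16a* encodes an endosomal protein that works with the ubiquitin ligase Nrdp1 in the clearance of mitochondria.

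The codons changed in CBP-AA mice lie in exon 25 of *Crebbp* on the minus strand of GRCm38, at chr16:4094308-4094310 and chr16:4094296-4094298. The stretch around them is shown to place the mutation. Distances were measured from the nearer end of the *Crebbp* gene, not from these codons. It was read from the reference transcript of the GENCODE annotation, runs across an exon junction and has both serine codons in capitals.
Crebbp codons: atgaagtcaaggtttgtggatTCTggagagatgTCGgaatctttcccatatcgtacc

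The sequences upstream of *Clec16a* and *Dexi* are shown because these genes start 2285 bases apart, point away from each other, and had log2 fold changes of 0.83 and 0.09 in CBP-AA against CBP-WT mice. Each line holds the 250 bases before the RefSeq start of the gene (GRCm38.p6), at chr16:10545089-10545338 on the plus strand for *Clec16a* and chr16:10543055-10543304 on the minus strand for *Dexi*. Capitals mark TGACG, the short form of the CREB element, on either strand.
Clec16a: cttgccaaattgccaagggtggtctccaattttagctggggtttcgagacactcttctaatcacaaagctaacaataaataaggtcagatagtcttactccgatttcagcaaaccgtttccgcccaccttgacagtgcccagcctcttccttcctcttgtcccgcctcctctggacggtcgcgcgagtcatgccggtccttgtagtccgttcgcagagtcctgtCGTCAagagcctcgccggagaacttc
Dexi: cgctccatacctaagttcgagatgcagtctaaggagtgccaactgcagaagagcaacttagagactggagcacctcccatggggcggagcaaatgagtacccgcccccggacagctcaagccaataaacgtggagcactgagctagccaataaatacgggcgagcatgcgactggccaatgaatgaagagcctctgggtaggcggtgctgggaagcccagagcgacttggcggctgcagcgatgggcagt
The short form was found once upstream of *Clec16a* and not in the window of *Dexi*. RefSeq promoters, from 250 bases before to 50 after the start, were matched for 39 of the 48 genes. The short form lay in 13 of their 46 promoters, or 28.26%, against 20.81% of 32851 promoters in the genome. The full element TGACGTCA, which contains the short form, lay in 3 of the 46, those of *Trap1*, *Glyr1* and *Ubn1*, against 1.79% in the genome. *Glyr1* and *Ubn1* start close together on opposite strands, so their promoters share bases. A match is a run of letters and was not tested as a binding site.

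The 12 libraries held 11177430 to 18029125 counted reads. Epithelial markers summed to a TPM between 22300 and 40900 in every library, beside 5.05 to 9.57 for stromal, 1.60 to 2.39 for endothelial and 7.03 to 24.4 for leukocyte markers, and the endothelial marker *Cdh5* was at 0 reads in all 12. Summed TPM of the lists for small intestine and Paneth cells, cells that the colon should largely lack, differed between mice. It reached 6330 and 19100 in CBP-WT p53ΔIEC replicate 1 and 3570 and 9070 in CBP-AA p53ΔIEC replicate 3. Elsewhere it was 819 to 3170 for small intestine and 361 to 12000 for Paneth cells. Some listed genes were abundant in every library, such as *Fabp2* (TPM 613 to 2530) and *Ang4* (299 to 11800). *Ang4* gave 11800 of the 12000 in CBP-AA p53-floxed replicate 3, where *Defa24* was at 23.1. *Defa24* was at 471 in CBP-AA p53-floxed replicate 2, 8290 in CBP-WT p53ΔIEC replicate 1, and 1080 and 1910 in CBP-AA p53ΔIEC replicates 1 and 3. In the other mice it was at 0 to 23.1. *Trp53*, the deleted gene, fell by 2.61 ± 0.16 (SE) on the log2 scale in p53ΔIEC crypts (edgeR adjusted p = 5.6e-06), and p53 states did not overlap, with a TPM of 23.3 to 33.5 in p53-floxed and 3.26 to 6.13 in p53ΔIEC mice. With p53 loss, *Car1* of the epithelial and *Slc10a2* of the small intestine list rose (0.62 ± 0.15 and 0.56 ± 0.15, edgeR adjusted p = 0.0347 and 0.0475). *Pdgfrb* of the stromal list fell by 0.86 ± 0.15 (edgeR adjusted p = 0.0117). Of the 12 stromal genes, 3 were tested, and the others of these, *Vim* and *Thy1*, had -0.02 ± 0.18 and 0.47 ± 0.42. No other gene of the marker lists was called by edgeR in any comparison. DESeq2 called 4 genes beside *Clec16a* for CBP-AA against CBP-WT mice over both p53 states, *Dhrs9* and the defensins *Defa24*, *Defa30* and *Defa38*, and *Defa24* and *Defa30* are in the Paneth cell list. *Crebbp* itself (ENSMUSG00000022521) differed by a log2 fold change of 0.05 ± 0.09 (SE) between CBP-AA and CBP-WT mice over both p53 states.

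*Clec16a* (ENSMUSG00000068663, chromosome 16, 10545339 to 10744878, plus strand) was higher in every CBP-AA mouse than in every CBP-WT mouse of the same p53 state. It lies 6.33 Mb from *Crebbp*. Its TPM was 7.85, 7.97 and 8.04 in the 3 CBP-WT p53-floxed mice and 14.7, 11.9 and 11.0 in the 3 CBP-AA p53-floxed mice. With p53 deleted, it was 4.76, 7.36 and 7.96 in CBP-WT and 11.5, 13.2 and 13.1 in CBP-AA mice. The lowest CBP-AA value of all 6 mice thus lay above the highest CBP-WT value of all 6. Averaged over both p53 states, the log2 fold change was 0.83 ± 0.08 (SE), a 1.78-fold higher level with a 95% interval of 1.58 to 2.00, and it stayed between 0.79 and 0.87 when each of the 12 libraries was left out in turn. The value was 0.77 ± 0.11 in p53-floxed and 0.89 ± 0.11 in p53ΔIEC crypts, and the difference of these values, 0.12 ± 0.15, did not pass the interaction test (edgeR adjusted p = 0.778). The gene rested on 201 to 749 reads per library, and the only annotated gene overlapping it, the antisense *Gm15558*, had 0 reads and shared no exon bases with it.

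**Figure D1:**
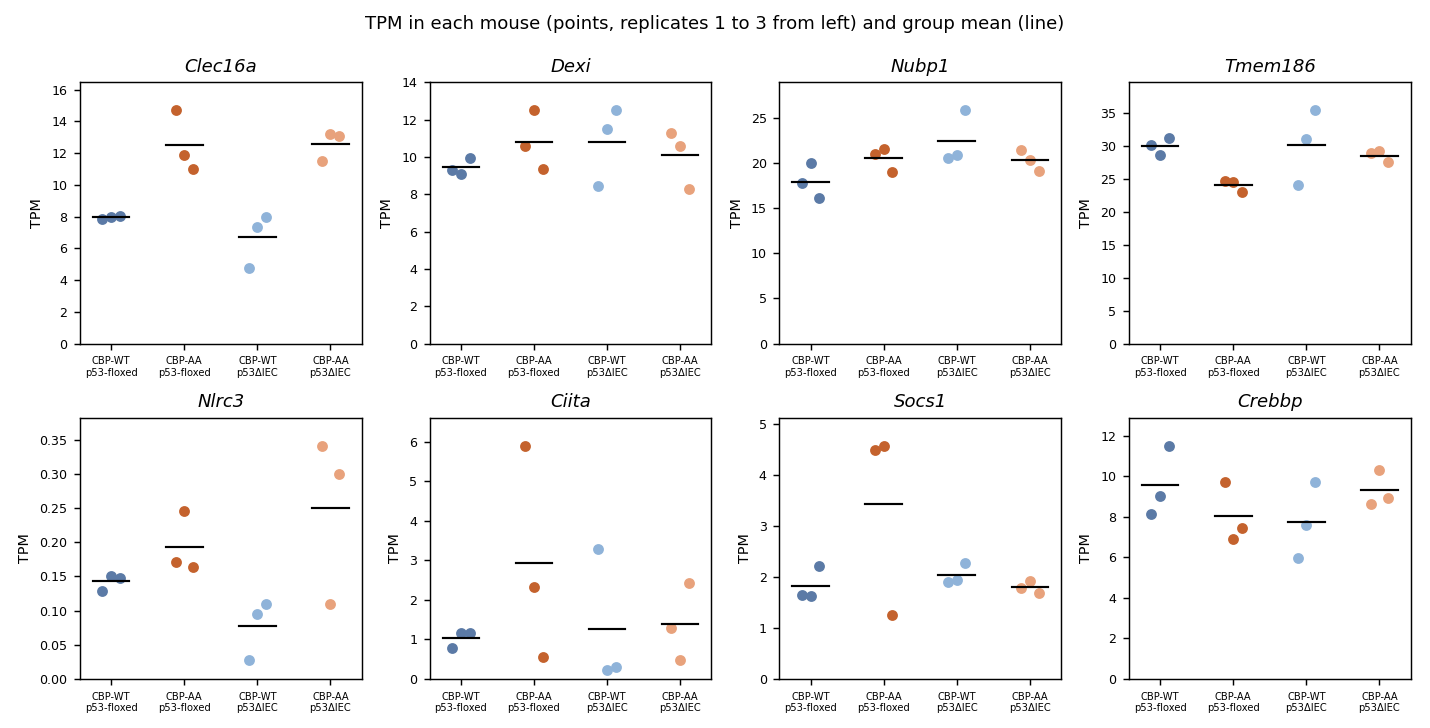
TPM (y axis, from 0) of 8 genes in each of the 12 mice, with points for replicates 1 to 3 from left to right and a line at the group mean, for the 4 groups on the x axis. *Clec16a* lies at 4.76 to 8.04 in CBP-WT and 11.0 to 14.7 in CBP-AA mice, whereas the groups overlap in at least 1 p53 state for the other 7 genes.

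The cutoff for counting a gene was an edgeR adjusted p under 0.05 with a log2 fold change above 0.5 in size. Since the list was drawn up with the CBP comparisons known, the counts of CBP-AA against CBP-WT mice are descriptions, and nothing is read from them. Over both p53 states, 1 of the 46 genes passed it, *Clec16a*, and the same gene was the only one among the 14610 tested, a background of 0.00684%. In p53ΔIEC crypts 1 of 46 passed, against a background of 0.00684%, and this call was lost in 10 of the 12 fits that left out 1 library, including the fit without CBP-WT p53ΔIEC replicate 1, while the log2 fold change of *Clec16a* stayed between 0.80 and 0.96. In p53-floxed crypts 0 of 46 passed, against a background of 0%. There, 6 of the 46 had an unadjusted p under 0.05 against 8.04% of all genes tested, and DESeq2 called 1 of them, *Clec16a*, against a background of 0.122%. At an unadjusted p under 0.05, the counts were 4 of 46 over both states against 2.57%, and 3 of 46 in p53ΔIEC crypts against 3.57%. Both counts include *Clec16a* and also *Nlrc3*, which was tested only through CBP-AA libraries. Over both states, *Clec16a* was the only gene inside the cutoff, and the next genes by adjusted p were *Myc*, on chromosome 15, with a log2 fold change of 0.35 ± 0.07, and *Dhrs9*, on chromosome 2, with -0.71 ± 0.14, both far outside it by adjusted p.

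The other 45 flanking genes tested gave log2 fold changes of CBP-AA against CBP-WT between -0.18 and 1.10 over both p53 states. Their median was -0.019, and the median size over all 46 was 0.074, beside 0.077 over all genes tested. The median SE was 0.09 for the 46 and 0.122 over all genes tested, so sizes and intervals are set beside each other at unlike precision. In total, 21 of the 45 were higher and 24 lower. The 95% interval lay wholly within 0.5 of 0 for 32 of the 46, or 69.6%, beside 68.3% of all genes tested, so that for these genes a difference above the cutoff lies outside the interval. Along the chromosome, the 6 tested genes before *Crebbp* (at lower coordinates) had a median of 0.081. These 6 include *Nlrc3*, at 1.10, which was tested only through CBP-AA libraries and so had to be high there. The 31 between *Crebbp* and *Clec16a* had a median of -0.019, and the 8 beyond *Clec16a* a median of -0.031. Distance from *Crebbp* and the size of the log2 fold change had a Spearman's rho of -0.02 across the 46 genes, which share libraries and are not independent, and mean level and size had one of -0.44. No tested member lay between 1.03 and 4.30 Mb from *Crebbp*.

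**Figure D2:**
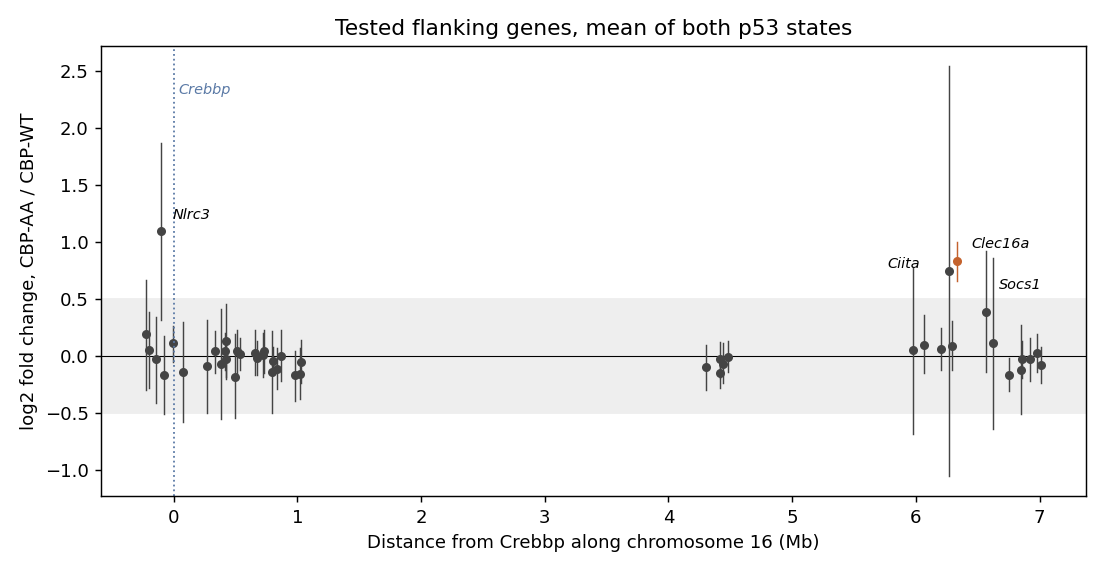
log2 fold change of CBP-AA against CBP-WT over both p53 states (y axis, with 95% intervals as vertical lines) of the 46 tested genes by distance from *Crebbp* in Mb (x axis, negative at lower coordinates), with the cutoff of 0.5 in size shaded. *Clec16a*, at 6.33 Mb, has an interval of 0.66 to 1.00, and genes on either side of it lie near 0 or have wide intervals.

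The list did not hold every gene of the stretch. By annotation, 71 protein-coding genes start within the 7.37 Mb between the first and the last of the 48, of which 22 were neither listed nor *Crebbp*. Only 6 of these 22 passed the filter on low counts: *Naa60*, *1700037C18Rik*, *Pam16*, *Smim22*, *Mettl22* and *Hapstr1*. Their log2 fold changes lay between -0.09 and 0.13, and *Clec16a* was thus the only gene at the cutoff among the 53 tested in the stretch. On all of chromosome 16, 463 genes were tested. The groups did not overlap in both p53 states, in the same direction, for 4 of them by scaled CPM, or 0.864%, beside 0.219% of all genes tested. They were *Nlrc3*, *Tmem186*, *Clec16a* and *Tfrc*, which lies between 30 and 40 Mb and is named after its values were seen. *Nlrc3* was tested only through CBP-AA libraries, and *Clec16a* was known when the list was drawn up, so nothing is read from this count.

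Neighbours on either side of *Clec16a* had lower fold changes, some with wide intervals. *Dexi*, a gene induced by dexamethasone, had a TPM of 9.32, 9.11 and 9.96 in CBP-WT p53-floxed, 10.6, 12.5 and 9.34 in CBP-AA p53-floxed, 8.46, 11.5 and 12.5 in CBP-WT p53ΔIEC and 11.3, 10.6 and 8.29 in CBP-AA p53ΔIEC mice. These values overlapped in both p53 states, and the log2 fold change over both was 0.09 ± 0.10 (SE), with a 95% interval of -0.12 to 0.31. *Dexi* shares 329 exon bases with *Ciita* on the opposite strand, and whether counting used the strand is not given in the sources used here, so reads of both may be mixed. *Nubp1*, an assembly factor of cytosolic iron-sulphur proteins, had a log2 fold change of 0.06 ± 0.08. *Rmi2*, a subunit of the complex that dissolves DNA crossover intermediates, had one of 0.11 ± 0.35, with a 95% interval of -0.64 to 0.86. *Emp2*, a tetraspan membrane protein, had one of 0.10 ± 0.12.

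Immune regulators among the flanking genes varied between single mice. *Ciita*, the master activator of MHC class II genes, had a TPM of 0.790, 1.15 and 1.15 in CBP-WT p53-floxed and 5.90, 2.32 and 0.568 in CBP-AA p53-floxed mice. With p53 deleted it was 3.29, 0.228 and 0.307 in CBP-WT and 1.28, 0.484 and 2.42 in CBP-AA mice. The groups overlapped in both states, and the log2 fold change over both was 0.75 ± 0.79 (SE), which was 2.01 ± 0.63 without CBP-WT p53ΔIEC replicate 1. The same 5 mice had the highest *Ciita* and the highest summed TPM of 9 MHC class II genes. These sums were 295 and 308 in CBP-AA p53-floxed replicates 1 and 2, 754 in CBP-WT p53ΔIEC replicate 1, and 241 and 397 in CBP-AA p53ΔIEC replicates 1 and 3, against 17.5 to 57.8 in the other 7 mice. Of the 6 MHC class II genes tested, none passed the cutoff in any comparison, with unadjusted p under 0.05 in 0 of 6 throughout. The leukocyte sum was 8.94 to 24.4 in CBP-AA and 7.03 to 15.4 in CBP-WT mice. The same 5 mice also had the 5 highest sums of small intestine markers, with 1730 and 3170 in CBP-AA p53-floxed replicates 1 and 2, 6330 in CBP-WT p53ΔIEC replicate 1, and 1760 and 3570 in CBP-AA p53ΔIEC replicates 1 and 3, against 819 to 1550 in the other 7. In CBP-AA p53-floxed replicate 1, however, *Fabp2* gave 1550 of the 1730, and *Fabp6* was at 3.78. *Fabp6* was at 217 in CBP-AA p53-floxed replicate 2 and at 1630 in CBP-WT p53ΔIEC replicate 1. It was at 453 and 500 in CBP-AA p53ΔIEC replicates 1 and 3, against 4.78 to 20.1 in the other 7. The part of leukocytes or small intestine cells in the level of *Ciita* was not tested. In bulk crypts, fewer cells of a type and less RNA per cell cannot be told apart.

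**Figure D3:**
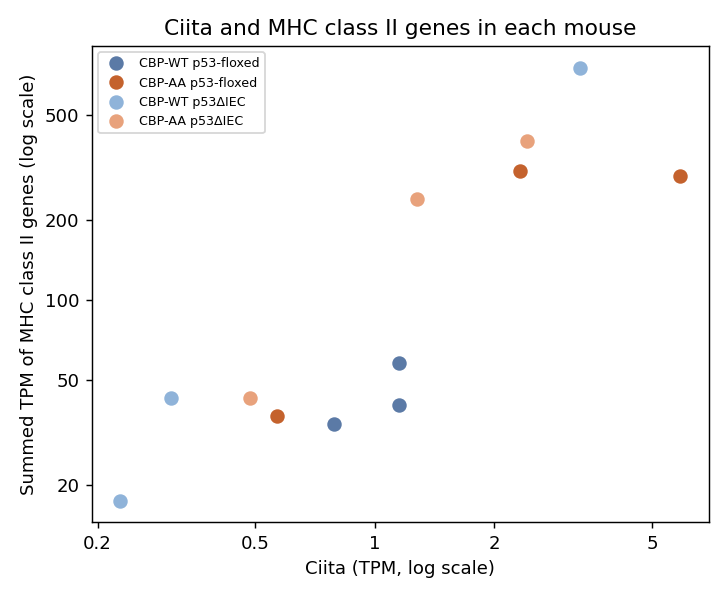
TPM of *Ciita* (x axis, log scale) and summed TPM of 9 MHC class II genes (y axis, log scale), with 1 point per mouse coloured by group. The 5 mice with a *Ciita* TPM of 1.28 or more have sums of 241 to 754, and the other 7 have sums of 17.5 to 57.8.

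*Socs1*, an inhibitor of cytokine signalling through JAK kinases, had a TPM of 1.65, 1.63 and 2.21 in CBP-WT p53-floxed and 4.49, 4.58 and 1.26 in CBP-AA p53-floxed mice. In p53ΔIEC mice it was 1.91, 1.95 and 2.28 with CBP-WT and 1.79, 1.92 and 1.69 with CBP-AA. The high values were those of CBP-AA p53-floxed replicates 1 and 2, and the log2 fold change over both states was 0.39 ± 0.25 (SE). *Nlrc3*, which lies 0.105 Mb from *Crebbp* and encodes an NLR protein that dampens inflammatory signalling, had the highest fold change of the list, but it had few reads and was tested only through CBP-AA libraries, so that it had to be high there. It had 4, 7 and 7 reads in CBP-WT p53-floxed, 6, 13 and 6 in CBP-AA p53-floxed, 1, 4 and 4 in CBP-WT p53ΔIEC and 13, 4 and 12 in CBP-AA p53ΔIEC mice. Its log2 fold change over both states was 1.10 ± 0.36, a 2.14-fold higher level with a 95% interval of 1.25 to 3.65. The gene was left out where at least 10 counts were required in every library. *Litaf*, a protein of late endosomes that is induced by lipopolysaccharide, was at the other end of the list with -0.17 ± 0.07 and a TPM of 50.9 to 72.3.

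The groups did not overlap in both p53 states, in the same direction, for *Clec16a*, higher in CBP-AA mice, and *Tmem186*, an assembly factor of mitochondrial complex I, which was lower. These are 2 of the 45 tested genes other than *Nlrc3*, and the background over all genes tested was 0.219%. *Nlrc3* was also separated, but in p53ΔIEC mice this set 4 reads of a CBP-AA mouse against 4 reads of each of 2 CBP-WT mice, at a CPM of 0.290 against 0.254 and 0.268, so that the scaling of the libraries decided it. These values are CPM scaled by TMM factors. On TPM, *Clec16a* alone remained, beside 23 of all genes tested. The CPM of *Tmem186* was 37.4 to 40.3 in CBP-WT and 31.5 to 36.0 in CBP-AA p53-floxed mice, and 38.5 to 41.2 in CBP-WT and 36.7 to 37.3 in CBP-AA p53ΔIEC mice, a log2 fold change of -0.15 ± 0.06 over both states. Its TPM in CBP-WT p53ΔIEC replicate 1, 24.1, lay below the 27.6 to 29.2 of CBP-AA p53ΔIEC mice. *Tmem186* also shares 39 exon bases with *Pmm2*, which had 40056 reads over the 12 libraries beside its own 6465.

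The p53 states were also compared gene by gene. The log2 fold changes of CBP-AA against CBP-WT had the same sign in p53-floxed and p53ΔIEC mice, which share no library, for 18 of 46 genes, or 39.1%, beside 36.3% of all genes tested, a similar share. Without CBP-WT p53ΔIEC replicate 1, the shares were 45.7% and 49.4%. In p53-floxed mice the groups did not overlap for 10 of the 46, against a background of 19.4%. CBP-AA mice were higher for 8 of these, against a background of 9.75%: *Clec16a*, *Dexi*, *Nubp1*, *Rsl1d1*, *Trap1*, *Coro7*, *Vasn* and *Nlrc3*. In p53ΔIEC mice the groups did not overlap for 11 of the 46, against a background of 9.26%. CBP-AA mice were lower for 9 of these, against a background of 4.5%: *Socs1*, *Litaf*, *Snn*, *Tmem186*, *Pmm2*, *Glyr1*, *Nagpa*, *Alg1* and *Eef2kmt*. *Clec16a*, known when the list was drawn up, and *Nlrc3*, tested only through CBP-AA libraries, were higher in both states. Both are in the counts of 10, 8 and 11, so nothing is read from these counts. None of the 46 was separated in opposite directions in the p53 states, against a background of 1.51%. *Dexi* had 0.32 ± 0.14 in p53-floxed and -0.14 ± 0.14 in p53ΔIEC mice, and *Nubp1* had 0.32 ± 0.12 and -0.19 ± 0.12. On CPM, the 3 *Dexi* values of CBP-AA p53-floxed mice lay above those of CBP-WT p53-floxed mice, whereas on TPM they overlapped.

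**Figure D4:**
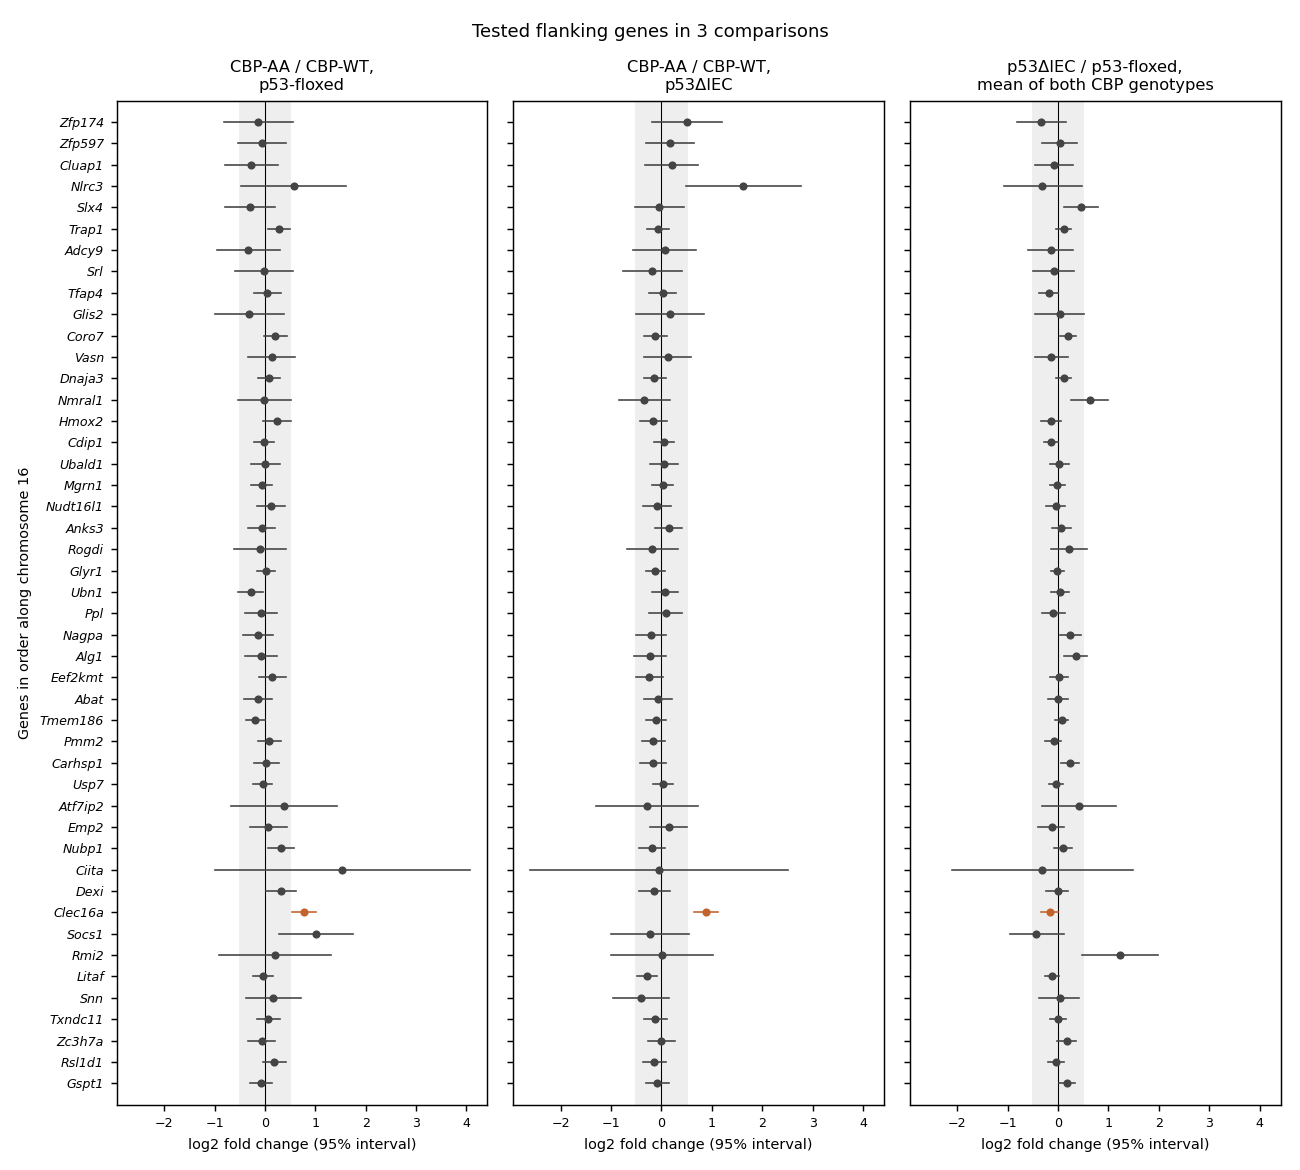
log2 fold change (x axis, with 95% intervals as lines) of the 46 tested genes in order along chromosome 16 (y axis), for CBP-AA against CBP-WT in p53-floxed and in p53ΔIEC mice and for p53ΔIEC against p53-floxed mice, with 0.5 in size shaded. *Clec16a* is shifted to 0.77 and 0.89 in the CBP comparisons and to -0.17 in the p53 comparison.

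The rule that chose the genes did not use the loss of p53, so this loss was tested. The list and the tests were still chosen with earlier results of these data known. None of the 46 passed the cutoff in p53ΔIEC against p53-floxed mice, averaged over both CBP genotypes (edgeR, 0 of 46 against a background of 3.5%). At an unadjusted p under 0.05 there were 9 of 46 against 21.9%, and DESeq2 called 2 of 46 against 5.06%. These were *Rmi2* and *Nmral1*, a sensor of NADPH, and *Rmi2* is named for its values here. *Rmi2* had a TPM of 0.688 to 1.65 in the 6 p53-floxed mice. In p53ΔIEC mice it was 0.706, 2.90 and 4.43 with CBP-WT and 2.85, 3.85 and 1.25 with CBP-AA. The low values of the p53ΔIEC mice were those of CBP-WT replicate 1 and CBP-AA replicate 3, the mice with the highest sums of small intestine markers, and the part of these cells was not tested. The log2 fold change was 1.23 ± 0.35 (SE; edgeR adjusted p = 0.0622), and with each library left out in turn it ranged from 1.01 ± 0.34 without CBP-WT p53ΔIEC replicate 3 (edgeR adjusted p = 0.162) to 1.42 ± 0.26 without CBP-WT p53ΔIEC replicate 1 (edgeR adjusted p = 0.00546). It passed the cutoff in 2 of these 12 fits, those without CBP-WT p53ΔIEC replicate 1 and without CBP-AA p53ΔIEC replicate 3.

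*Nmral1* had a TPM of 2.24 to 2.94 in the 6 p53-floxed mice, and of 3.42, 5.97 and 4.72 in CBP-WT and 4.96, 4.06 and 2.44 in CBP-AA p53ΔIEC mice. All p53ΔIEC mice except CBP-AA replicate 3 lay above every p53-floxed mouse. The log2 fold change was 0.63 ± 0.17 (SE; edgeR adjusted p = 0.0505), and with each library left out it ranged from 0.52 ± 0.17 without CBP-AA p53ΔIEC replicate 1 (edgeR adjusted p = 0.154) to 0.74 ± 0.14 without CBP-AA p53ΔIEC replicate 3 (edgeR adjusted p = 0.00566), and passed in 2 of the 12 fits. Without CBP-WT p53ΔIEC replicate 1, *Rmi2*, *Nmral1* and *Slx4*, a scaffold of DNA repair nucleases, passed the cutoff, or 3 of 46 beside 1073 of all genes tested. *Slx4* had a log2 fold change of 0.46 ± 0.16 over all mice (edgeR adjusted p = 0.119). *Clec16a* had -0.17 ± 0.08 in this comparison (edgeR adjusted p = 0.207).

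Flanking genes that act with p53 did not pass either. They were *Usp7*, a deubiquitinase of p53 and its ligase Mdm2, *Cdip1*, a p53 target in cell death, *Dnaja3*, a mitochondrial chaperone that binds p53, and *Tfap4*, a repressor of the p53 target p21. Their log2 fold changes with p53 loss were -0.04 ± 0.06, -0.14 ± 0.06, 0.11 ± 0.07 and -0.18 ± 0.09, with edgeR adjusted p of 0.228 or more. A list of 32 functional partners of the flanking genes, located elsewhere in the genome, was read beside them. Of these 32, 1 rose with p53 loss and none fell, against a background of 3.5% called in either direction. It was *Eme1*, a subunit of a structure-specific nuclease bound by Slx4 (log2 fold change 1.89 ± 0.35, edgeR adjusted p = 0.0144). Its TPM was only 1.08 in CBP-AA p53ΔIEC replicate 3. The median of the 32 was 0.04 beside 0.008 over all genes tested. Against CBP genotype, 0 of the 32 passed the cutoff over both p53 states, against a background of 0.00684%. At an unadjusted p under 0.05 there was 1 of 32, against 2.57%. The partner of Clec16a, *Rnf41*, which encodes Nrdp1, had a log2 fold change of 0.02 ± 0.09 between CBP-AA and CBP-WT mice.

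In the interaction of CBP genotype with p53 loss, 0 of the 46 genes passed the cutoff in edgeR, against a background of 0.00684%. At an unadjusted p under 0.05 there were 8 of 46 against 10.3%, and DESeq2 called 0 of 46 against 0.207%. The largest differences were those of *Ciita*, at -1.59 ± 1.59 (SE), and *Socs1*, at -1.24 ± 0.49 (edgeR adjusted p = 0.714 and 0.482). *Nubp1* had -0.51 ± 0.17 and *Dexi* -0.46 ± 0.20, both with an edgeR adjusted p of 0.482. Negative values mean that CBP-AA mice were lower relative to CBP-WT mice without p53 than with it.

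By function, the remaining flanking genes stayed close to 0 over both p53 states. The 5 tested genes of glycosylation, the Golgi and the ER had log2 fold changes between -0.17 and 0.04. Among these, *Pmm2*, the phosphomannomutase of N-glycosylation, was the most abundant gene of the list with a mean TPM of 107 over the 12 mice, and it had -0.03 ± 0.07. *Alg1*, a mannosyltransferase of the same pathway, had -0.16 ± 0.11, and *Nagpa*, which uncovers the mannose 6-phosphate tag of lysosomal enzymes, had -0.17 ± 0.10. The 6 mitochondrial, haem and iron-sulphur genes lay between -0.18 and 0.11, with *Trap1*, a mitochondrial chaperone whose gene is the nearest neighbour of *Crebbp* at 0.0035 Mb, at 0.11 ± 0.07. *Nmral1* was the lowest of the whole list at -0.18 ± 0.17.

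The 6 tested genes of genome maintenance and chromatin lay between -0.17 and 0.11, with *Slx4* at -0.17 ± 0.16. The 5 genes of translation and RNA lay between -0.08 and 0.03, among them *Gspt1*, a translation release factor, at -0.08 ± 0.07. The 5 genes of membrane, junction and signalling lay between -0.14 and 0.13, with *Adcy9*, an adenylyl cyclase, at -0.14 ± 0.20, next to *Crebbp* on its other side at 0.0735 Mb. The 4 genes of the p53 pathway lay between -0.03 and 0.04. In the endosome and autophagy group, the 3 genes other than *Clec16a*, namely *Snn*, *Mgrn1* and *Rogdi*, were all below 0, down to -0.14, and the group of cilium and other genes lay between -0.03 and 0.09. The 3 transcription factors lay between -0.07 and 0.19, with *Zfp174* the highest at 0.19 ± 0.23. All of these are log2 fold changes of CBP-AA against CBP-WT mice, and apart from *Clec16a* none passed the cutoff.

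Within p53ΔIEC crypts, some of these groups took 1 sign throughout. All 6 mitochondrial, haem and iron-sulphur genes were lower in CBP-AA than in CBP-WT mice, between -0.34 and -0.07, and so were all 5 tested genes of glycosylation, the Golgi and the ER, between -0.23 and -0.12. The 5 genes of translation and RNA were lower too, down to -0.24, whereas all 3 transcription factors were higher, between 0.16 and 0.50. In p53-floxed crypts, 3 genes of each of the first 3 groups were higher, and all 3 transcription factors were lower, between -0.31 and -0.05. Over all genes tested, 47.7% were higher in p53ΔIEC and 52% in p53-floxed crypts. None of these genes passed the cutoff in either state, and the sign of a whole group was not tested.

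Levels of the flanking genes spanned a wide range. The mean TPM over the 12 mice ran from 107 for *Pmm2* and 103 for *Carhsp1*, an RNA-binding protein, to 0.555 for *Atf7ip2*, a chromatin regulator, and 0.166 for *Nlrc3*, with a median of 13. In total, 29 of the 46 lay above 10 and 2 below 1, and *Clec16a* had 9.94. In total, 22 of the 48 genes share exon bases with another protein-coding gene, which leaves their counts uncertain where strand was not used.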

How the data were processed

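Colonic crypts were isolated with EDTA, and RNA was sequenced from libraries made with a stranded TruSeq mRNA kit, per the labels. The submitters' processing notes name fastp 0.20.0, FastQC 0.11.9, HISAT2 2.1.0, SAMtools 1.9 and featureCounts of Subread 2.0.1, with GRCm38; whether counting used strand is not given in the sources used here. The authors deposited raw read counts per gene and library, and TPM values (reads scaled to gene length and library) that summed to 1000000 per library. Columns that hold the authors' comparisons (log2 fold changes with their p-values) were left aside.

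Counts were analysed with edgeR 4.0.16 in R 4.3.3 (filterByExpr with a minimum count of 10, TMM factors, robust quasi-likelihood fit of 4 groups over all 12 libraries). P-values were adjusted by Benjamini-Hochberg over all 14610 genes tested. The cutoff for a call combined 0.05 for the adjusted p with 0.5 for the size of the log2 fold change. P-values weigh a difference between groups against the spread between these mice. Standard errors and 95% intervals came from the quasi-likelihood F statistic. Groups were called separated where the log2 CPM (prior count 2) of all mice of a group lay above or below those of the other. Groups and replicates came from the labels, 1 mouse per library, and labels and the series design were joined for the p53 states. Positions, overlaps and codons came from GENCODE M21 (GRCm38), in which 55144 of 55471 identifiers were found, and promoters from RefSeq (GRCm38.p6).

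The members, the gene lists and the tests were chosen with earlier results of these data known. Genes named were *Crebbp*, *Trp53*, members called or separated in both p53 states, the 5 highest and 5 lowest members by log2 fold change over both states, untested members, and at most 4 genes per list; neighbours, functional groups and *Rmi2* were named beyond this rule after their values were seen. Lists covered functional partners, MHC class II, epithelial, stromal, endothelial, leukocyte, small intestine and Paneth cell genes. Alternatives were DESeq2 1.42.0, its size factors in edgeR, no or a stricter filter, the replicate number as a block, no fold cutoff, each library left out in turn, and, chosen after seeing the data, TPM in place of scaled CPM. The steps were tested on simulated counts. Plots used Python 3.11.15 and matplotlib 3.10.9.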

Additional observations from a re-analysis of the deposited data

How the results depend on the processing

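*Clec16a* passed the cutoff over both p53 states under all 18 alternatives (0.79 to 0.87), and 1 member, 1 gene of the stretch and, except in DESeq2 (5 genes), 1 gene of all tested were called. In p53-floxed mice, DESeq2 called 1 member and 33 genes, the fit without a filter 1 member and 3 genes, and fits leaving out 1 library 0 to 1 members and 0 to 2 genes. In p53ΔIEC mice, leaving out 1 library gave 0 to 1 members and 0 to 1 genes. With p53 loss, DESeq2 called 2 members and 761 genes, and the stricter filter 1 of 44 members and 451 of 12707 genes. Fits without 1 library called 0 to 3 members and 105 to 1073 genes. The lowest and highest gene counts came without CBP-WT p53-floxed replicate 3 and without CBP-WT p53ΔIEC replicate 1. For the interaction, DESeq2 called 30 genes, the fit without a filter 2, and fits without 1 library 0 to 1.

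Separation in both p53 states was found for 1 member and 23 genes on TPM, 60 genes without a filter, and, without 1 library, 3 to 5 members, *Nlrc3* included (5 without CBP-AA p53-floxed replicate 2) and 50 to 287 genes, where fewer mice make separation easier. The same sign in both states was found for 35.4% of genes without a filter, 34.7% with the stricter filter, and 31.6% to 49.4% without 1 library (30.4% to 45.7% of members). The causes were not tested.

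Replicate numbers did not pair the mice: deviations of same-numbered mice correlated between -0.526 and 0.548, over 0.1 in 3 of 18 pairs. With the replicate number as a block, 0 members and 0 genes were called for CBP-AA in p53ΔIEC mice, 304 genes with p53 loss and 0 genes for the interaction, and *Clec16a* still passed over both states. Under 12 fits without 1 library, *Zfp174* ranged from -0.02 to 0.29. *Ciita* reached 2.01 without CBP-WT p53ΔIEC replicate 1. With 1 to 13 reads per library, depth limits what can be said of *Nlrc3*.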
